A study of Homo sapiens with 12 samples.

Results

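Chaperone and heat shock genes were followed in REC1, an established human mantle cell lymphoma line, as a set of 39 genes picked by name out of the 60483 genes of the count table. The set was divided by role into the transcription factor HSF1, 7 inducible heat shock genes, 9 constitutive members of the HSP70, HSP90 and J protein families, 5 mitochondrial chaperones, 9 co-chaperones and 8 subunits of the TRiC ring. Cells had received ibrutinib together with SPX5551 (the combination), ibrutinib alone, SPX5551 alone, or DMSO, the solvent control. Each treatment was sampled at 4, 8 and 12 h, which gives 12 libraries of poly(A)-selected RNA, 1 for each treatment and time. Ibrutinib is a covalent inhibitor of BTK, a kinase downstream of the B-cell receptor, and SPX5551 (pol5551 in the table headers) is presented in the study's title as an inhibitor of the chemokine receptor CXCR4. The 4 groups are the same cell line, the labels name no genetic change, and no doses are stated in the sources used here. All 39 genes were found, and 38 passed the filter on low counts. HSPA1A did not, with 1 to 13 counts per library.

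Chaperones bind unfolded proteins and help them reach their folded state. HSP70 proteins cycle on and off their clients with the help of J proteins, which deliver clients, and of nucleotide exchange factors such as the BAG proteins. HSP90 takes over selected clients, many of them kinases and steroid receptors, with co-chaperones that load, pace and release them. TRiC, also called CCT, is a ring that folds actin, tubulin and other large proteins, while HSPD1 and HSPE1 form the chaperonin of mitochondria. When unfolded protein accumulates, HSF1 is released from chaperones and switches on the inducible heat shock genes through heat shock elements in their promoters. In B-cell lymphoma, HSP90 is known as a support of B-cell receptor kinases, BTK among them.

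Every treatment result rests on how conflicting labels are read. Sample titles and treatments match the headers of the count table, which are followed here, whereas the free-text descriptions point each sample to the header of a different treatment. The labels also give the material as genomic DNA beside a protocol for RNA. With columns assigned by the descriptions, all 5 decreases reported for the combination against DMSO and all 7 for ibrutinib exposure turn into increases, and comparisons between times are not affected. No treatment and time had another library, so the 3 times stand in as replicates of a treatment, and p-values reflect the spread among these libraries alone, which may be technical. Totals ran from 19336303 to 28934030 counts per library, of which the 39 genes held 2.21 to 2.78%. Libraries also differed along a trend with transcript length. Across genes within a library, Spearman's rho of transcript length with log2 CPM centred on each gene was taken. At 4, 8 and 12 h it was -0.02, -0.30 and 0.24 in the combination libraries and -0.15, -0.30 and 0.37 in the DMSO libraries. It was 0.17, 0.41 and 0.32 in the ibrutinib libraries and -0.20, -0.40 and -0.38 in the SPX5551 libraries. Treatment and this trend thus go together in comparisons with either of these single-agent groups. Counts of called genes with this trend and that of GC content corrected are given beside most of the results. All 7 B-cell and mantle cell lymphoma markers were present, at mean CPM (counts scaled to the size of each library) of 93.5 to 1566. Summed T-cell markers reached 9.95 CPM at most and summed myeloid markers 2.04 CPM, with S100A8 at 0 in all libraries. Stromal and epithelial markers summed to 42.4 to 93.4 CPM, with 2 of 5, PDGFRB and KRT18, at means over 10 CPM.

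Promoters of the genes with an annotated window were read for the letters that HSF1 is known to bind. The windows span 250 bases before to 50 bases after each annotated start (RefSeq, GRCh38.p14), and 34 of the 39 genes had at least 1 window, 47 windows in all. HSF1, HSPA14, FKBP4, STUB1 and CCT6A had none and were not read. A 2-unit heat shock element, GAANNTTC or TTCNNGAA, which reads alike on both strands, occurred in 19 of the 47 windows (40.4%) and in 13.5% of all 35116 windows. A 3-unit element, which contains 2-unit elements by construction, occurred in 14.9% of chaperone windows and in 0.49% of all windows. The E-box CACGTG, the letters bound by MYC and related factors, stood in 6.38% of chaperone windows and 7.26% of all windows. Its 3 carriers, HSPA9, HSPD1 and HSPE1, are all mitochondrial chaperones, but the HSPD1 and HSPE1 matches are the same bases, read on opposite strands. The 250 bases before the start of 3 mitochondrial and 3 inducible genes follow, 5′ to 3′ on the strand of each gene. Heat shock elements and E-boxes that lie wholly within these bases are in capitals. For a gene with several starts, the start with most 3-unit elements, then most 2-unit elements and E-boxes, is shown. The choice therefore favours matches. HSPD1 and HSPA9 fell with the combination, HSPE1 is the partner of HSPD1, and HSP90AA1, HSPB1 and DNAJB1 changed with time. TRAP1 also fell with the combination, and HSPH1 and BAG3 also changed with time. Their windows held no heat shock element or E-box and are not shown, so the choice of genes favours matches too. HSPD1 (chr2:197499841-197500090, minus strand) and HSPE1 (chr2:197500129-197500378, plus strand) are transcribed away from each other, and the windows lie side by side. HSPA9 is at chr5:138575402-138575651 (minus strand), HSP90AA1 at chr14:102087045-102087294 (minus strand), HSPB1 at chr7:76302423-76302672 (plus strand) and DNAJB1 at chr19:14518398-14518647 (minus strand).
HSPD1: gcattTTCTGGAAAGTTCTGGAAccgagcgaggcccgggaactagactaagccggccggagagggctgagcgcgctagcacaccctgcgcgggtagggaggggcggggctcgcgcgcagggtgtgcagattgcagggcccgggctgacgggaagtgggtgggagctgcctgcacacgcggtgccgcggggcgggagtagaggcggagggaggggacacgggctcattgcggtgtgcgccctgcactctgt
HSPE1: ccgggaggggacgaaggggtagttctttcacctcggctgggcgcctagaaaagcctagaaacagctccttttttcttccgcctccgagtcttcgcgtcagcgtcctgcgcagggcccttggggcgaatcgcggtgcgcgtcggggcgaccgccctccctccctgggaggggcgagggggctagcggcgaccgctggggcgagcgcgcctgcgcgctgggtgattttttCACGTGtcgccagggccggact
HSPA9: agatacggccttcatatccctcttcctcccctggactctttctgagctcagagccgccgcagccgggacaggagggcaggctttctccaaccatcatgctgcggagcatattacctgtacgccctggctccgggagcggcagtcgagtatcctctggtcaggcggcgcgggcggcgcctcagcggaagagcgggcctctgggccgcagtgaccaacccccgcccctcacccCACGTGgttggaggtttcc
HSP90AA1: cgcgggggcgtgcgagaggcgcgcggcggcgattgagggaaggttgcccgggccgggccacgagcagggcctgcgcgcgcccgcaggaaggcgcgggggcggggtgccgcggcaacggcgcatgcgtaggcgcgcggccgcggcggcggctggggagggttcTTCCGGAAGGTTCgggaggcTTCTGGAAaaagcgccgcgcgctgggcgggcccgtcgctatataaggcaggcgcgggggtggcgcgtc
HSPB1: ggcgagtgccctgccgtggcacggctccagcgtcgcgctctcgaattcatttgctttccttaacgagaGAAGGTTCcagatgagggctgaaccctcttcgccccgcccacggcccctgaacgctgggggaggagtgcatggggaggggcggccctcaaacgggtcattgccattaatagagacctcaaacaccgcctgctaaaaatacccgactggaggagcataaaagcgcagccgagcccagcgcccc
DNAJB1: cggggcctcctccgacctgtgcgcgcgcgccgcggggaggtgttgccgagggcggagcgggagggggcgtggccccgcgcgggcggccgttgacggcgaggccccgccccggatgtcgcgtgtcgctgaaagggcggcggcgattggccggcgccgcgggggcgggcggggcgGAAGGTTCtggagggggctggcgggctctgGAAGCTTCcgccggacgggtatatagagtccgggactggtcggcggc
The capitals of HSPD1 are 3 overlapping 2-unit elements between 245 and 228 bases before the start, and the E-box of HSPD1 lies in the window of another of its starts. In HSP90AA1 the elements sit between 88 and 61 bases before the start, in DNAJB1 between 77 and 40, and in HSPB1 between 182 and 175. HSPE1 and HSPA9 each hold 1 E-box, at 22 to 17 and at 19 to 14 bases before the start. HSPA9 also holds a 2-unit heat shock element that begins 4 bases before the start. This element runs past the bases shown and is not in capitals. By class, a 2-unit element was found for 5 of 7 inducible, 5 of 8 constitutive, 2 of 5 mitochondrial, 3 of 7 co-chaperone and 3 of 7 TRiC genes that had a window. A match is a run of letters and not a measured binding site.

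Levels differed widely among the genes, also within a class. Per kilobase of its longest transcript, HSPA8, the constitutive cytosolic HSP70, averaged 1978 CPM over the 12 libraries, HSP90AB1, the constitutive HSP90, 1805, and HSP90AA1, its inducible partner, 923. Other constitutive genes were far lower, down to 1.03 for HSPA4L. TRiC subunits lay between 185 and 476 CPM per kilobase and HSPD1, the mitochondrial HSP60, at 421. HSPE1, which works with HSPD1 as its lid, was at 80.5 CPM per kilobase. The stress-induced HSP70 gene HSPA1B was at 6.16 and HSPA1A at 0.122. These are near-identical copies on chromosome 6, whose transcripts match at 2282 of 2401 aligned bases (95.0%), so how the counting divided their reads is uncertain. Summing both copies changed no call.

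**Figure D1:**
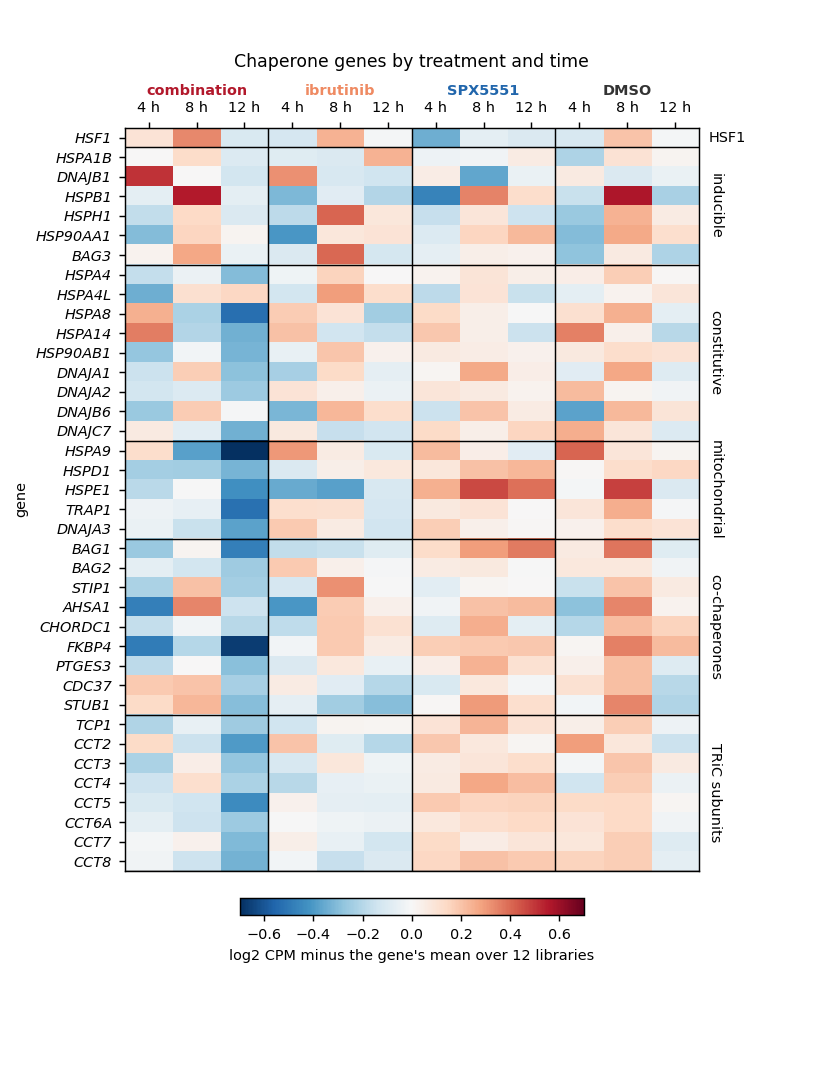
Log2 CPM of the 38 tested genes in each of the 12 libraries, minus the mean of each gene over the libraries; rows are genes grouped by role, columns are libraries ordered by treatment and time. The 12 h combination library is below the mean of the gene in 36 of 38 rows, and the 8 h DMSO library is above it in 37 of 38.

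The first comparison set the combination against DMSO. Of the 38 genes, 5 fell and 0 rose. They were FKBP4, a peptidyl-prolyl isomerase that assists HSP90 with steroid receptors, the mitochondrial chaperones HSPA9, HSPD1 and TRAP1, and the TRiC subunit CCT5. The share that fell was 13.2%, against 5.41% of all 14412 genes tested. In sign, 32 of 38 log2 fold changes were negative, and their median was -0.19 where the median of all genes was 0.02. At an unadjusted p under 0.05 the count was 20, all lower, and 3539 of all 14412 genes had such a p in either direction. In RNA from whole cultures, fewer cells of a type and less RNA per cell cannot be told apart. DESeq2 called 15 lower and 0 higher, and limma-trend, run on the authors' log2 CPM, called 8 lower and 0 higher. Leaving out 1 library gave 2 (12 h combination or 8 h DMSO), 3 (4 h ibrutinib), 9 (4 h SPX5551) or 10 (8 h ibrutinib or 12 h SPX5551). The count was 0 when time was dropped from the model, 18 after length and GC correction, 19 when both the 8 h ibrutinib and the 12 h SPX5551 library were dropped, and 2, 1 and 2 when the 4, 8 or 12 h samples were. Calls over all genes moved too, from 1379 to 27 with time dropped, 2261 after the correction and 2549 without the 2 libraries. They were 278, 302 and 785 without 4, 8 or 12 h, 1587 in DESeq2, and 568 to 1671 without 1 library. Scaling by library size alone gave 3 and moved the split of all called genes to 1140 higher and 493 lower, against 600 higher and 779 lower.

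**Figure D2:**
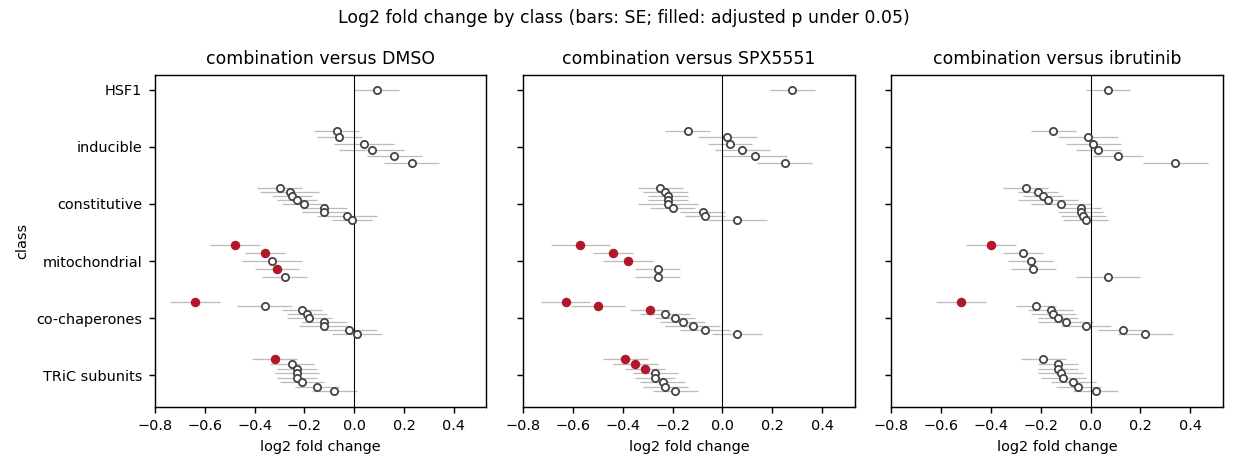
Log2 fold change of each gene by class for the combination versus DMSO, SPX5551 and ibrutinib; points are genes, bars are standard errors, and filled points have an adjusted p under 0.05. The 5 mitochondrial genes lie between -0.48 and -0.28 against DMSO and the 6 inducible genes between -0.07 and 0.23.

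The mitochondrial chaperones were lowest as a class. All 5 had negative log2 fold changes against DMSO, between -0.48 and -0.28 with a median of -0.33, and 3 of them fell in edgeR. DESeq2 called 4, limma-trend 4, and edgeR after length and GC correction 5, all lower. HSPA9, the mitochondrial HSP70 that pulls imported proteins through the inner membrane, had 672, 474 and 380 CPM in the combination libraries at 4, 8 and 12 h, against 819, 654 and 626 CPM in the DMSO libraries. Combination was below DMSO at each time, although the 4 h combination library lay above the 8 and 12 h DMSO libraries. Means were 509 ± 149 CPM with the combination and 700 ± 104 CPM with DMSO (SD over 3 times, n = 3 each). The log2 fold change was -0.48 ± 0.10 (SE; adjusted p = 0.00675, edgeR's quasi-likelihood test), with differences of -0.29, -0.46 and -0.72 at 4, 8 and 12 h. HSPA9 kept its call in all 12 fits that left out 1 library.

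HSPD1, the mitochondrial HSP60, had 870, 866 and 819 CPM with the combination at the 3 times, against 1031, 1119 and 1132 CPM with DMSO. The groups did not overlap, and the log2 fold change was -0.36 ± 0.08 (adjusted p = 0.0153). This call was lost without the 12 h combination or the 8 h DMSO library. Ibrutinib libraries held 958, 1055 and 1078 CPM of HSPD1 and SPX5551 libraries 1085, 1183 and 1203 CPM, so the combination libraries were the 3 lowest of the 12. Its partner HSPE1 had 65.5, 74.5 and 55.6 CPM with the combination, against 74.1, 104 and 69.8 CPM with DMSO. These groups overlapped, and the log2 fold change of -0.33 ± 0.12 did not pass (adjusted p = 0.108). HSPD1 and HSPE1 share 281 exon bases on opposite strands, 14.2% of the exon bases of HSPE1, and whether strand was used in counting is not stated.

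TRAP1, the mitochondrial HSP90, had 225, 222 and 161 CPM with the combination, against 245, 275 and 230 CPM with DMSO. Its groups did not overlap and the log2 fold change was -0.31 ± 0.09 (adjusted p = 0.0451), a call that was lost in 6 of the 12 fits without 1 library: those without any 1 of the 3 DMSO libraries, the 8 or 12 h combination library or the 4 h ibrutinib library. DNASE1, on the opposite strand, covers 29.3% of the exon bases of TRAP1. DNAJA3, the mitochondrial J protein, had 136, 126 and 108 CPM with the combination, against 143, 153 and 150 CPM with DMSO, a log2 fold change of -0.28 ± 0.09 that did not pass (adjusted p = 0.0614). Averaged over the 5 genes, the combination minus DMSO at 4, 8 and 12 h was -0.18, -0.38 and -0.50 on the log2 CPM scale. Whether such differences change with time was not tested for the combination alone.

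**Figure D3:**
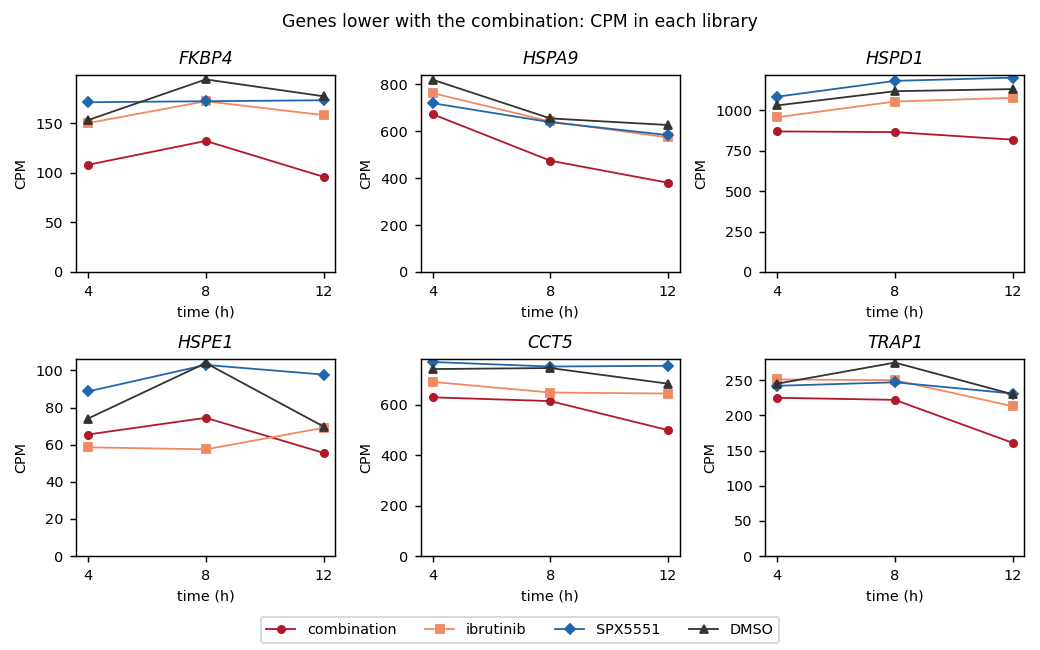
CPM against time (h) for 6 genes in the combination, ibrutinib, SPX5551 and DMSO libraries; each point is 1 library and all axes start at 0. The combination line is the lowest at every time for FKBP4, HSPA9, HSPD1, CCT5 and TRAP1, but not for HSPE1.

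Among the 9 co-chaperones, FKBP4 alone fell in edgeR, while DESeq2 called 3 lower, limma-trend 2, and edgeR after length and GC correction 5. FKBP4 had 108, 132 and 95.9 CPM with the combination, against 153, 194 and 177 CPM with DMSO. Ibrutinib libraries held 150, 172 and 158 CPM and SPX5551 libraries 171, 172 and 173 CPM. No combination library reached any of the other 9. The log2 fold change against DMSO was -0.64 ± 0.10 (adjusted p = 0.00105), the most negative of the 38 genes, and it was called in all 12 fits without 1 library. BAG1, an exchange factor that releases clients from HSP70, had 133, 161 and 114 CPM with the combination, against 166, 206 and 150 CPM with DMSO (log2 fold change -0.36 ± 0.11, adjusted p = 0.0564). PTGES3, the HSP90 co-chaperone p23, had 970, 1101 and 899 CPM with the combination, against 1127, 1273 and 1034 CPM with DMSO, at -0.21. CDC37, which loads kinases onto HSP90, was at 0.01, and STUB1, a ubiquitin ligase that marks chaperone clients for degradation, at -0.02. The class had a median of -0.18. On the opposite strand, RAB23 covers 42.7% of the exon bases of BAG2, and JMJD8 covers 42.4% of those of STUB1.

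The 8 TRiC subunits all had negative log2 fold changes against DMSO, from -0.32 to -0.08 with a median of -0.23, and 1 of them fell. DESeq2 called 5 of 8 lower, limma-trend 1, and edgeR after length and GC correction 5. With library size as the only scaling 7 of 8 were negative and 0 were called. CCT5 had 629, 614 and 499 CPM with the combination, against 741, 745 and 683 CPM with DMSO. Its groups did not overlap (log2 fold change -0.32 ± 0.09, adjusted p = 0.0328), and the call was lost without any 1 of the 3 DMSO libraries, the 12 h combination library or the 4 h ibrutinib library. CCT8 had 426, 392 and 344 CPM with the combination, against 482, 488 and 413 CPM with DMSO, at -0.25 ± 0.09 (adjusted p = 0.0917). TCP1, the subunit the ring was first named for, had 399, 445 and 388 CPM with the combination, against 475, 519 and 449 CPM with DMSO, at -0.23 ± 0.08 (adjusted p = 0.0936). Other subunits ranged from -0.23 for CCT3 and CCT6A to -0.08 for CCT4.

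The constitutive class had negative values for all 9 genes, with a median of -0.20, and none passed in edgeR. At an unadjusted p under 0.05, 5 were lower, and DESeq2 called 3 and limma-trend 1. HSP90AB1 had 3989, 4742 and 3838 CPM with the combination, against 5037, 5235 and 5152 CPM with DMSO. The groups did not overlap, at -0.30 ± 0.09 (adjusted p = 0.0533). HSPA4, a relative of HSP70 that acts as an exchange factor, had 302, 329 and 274 CPM with the combination, against 350, 382 and 341 CPM with DMSO, also without overlap (-0.25 ± 0.08, adjusted p = 0.0650). HSPA8 was at -0.26 ± 0.12 (adjusted p = 0.192), with a wider spread over time in the combination libraries (5725, 4127 and 3337 CPM) than in the DMSO libraries (5212, 5722 and 4596 CPM). HSPA4L, DNAJB6, DNAJA1 and HSPA14 lay between -0.12 and -0.01.

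In the inducible class no gene fell with the combination. Of its 6 tested genes, 0 passed against DMSO in edgeR, 0 did at an unadjusted p under 0.05, and DESeq2 and limma-trend called 0. Values ran from -0.07 to 0.23 with a median of 0.06, which became -0.03 after length and GC correction. BAG3, which links HSP70 to autophagy, had 16.9, 20.1 and 16.1 CPM with the combination, against 13.7, 17.4 and 14.3 CPM with DMSO (0.23 ± 0.11, adjusted p = 0.215). It was higher with the combination at each time, although the groups overlapped. DNAJB1, the J protein of the heat shock response, had 163, 115 and 105 CPM with the combination, against 120, 107 and 111 CPM with DMSO (0.16 ± 0.11). HSPB1, a small heat shock protein that holds unfolded proteins, had 30.6, 47.1 and 30.6 CPM with the combination, against 28.8, 47.5 and 27.4 CPM with DMSO (0.07 ± 0.13). HSPA1B had 15.5, 16.9 and 14.5 CPM with the combination, against 13.3, 16.6 and 15.7 CPM with DMSO.

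HSP90AA1 and HSPH1, an exchange factor for HSP70, made up the rest of the inducible class. HSP90AA1 had 2600, 3562 and 3244 CPM with the combination, against 2600, 3848 and 3479 CPM with DMSO. HSPH1 had 269, 334 and 282 CPM with the combination, against 253, 358 and 315 CPM with DMSO. Both groups of both genes overlapped. HSF1 had 109, 129 and 94.7 CPM with the combination, against 94.3, 117 and 101 CPM with DMSO (0.09 ± 0.09, adjusted p = 0.602). Its sign turned after length and GC correction (-0.11). The difference between the inducible class and the constitutive and mitochondrial chaperones was not tested. The 14 constitutive and mitochondrial genes had a median of -0.25 and all were negative, although 2 constitutive genes turned positive when library size was the only scaling.

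**Figure D4:**
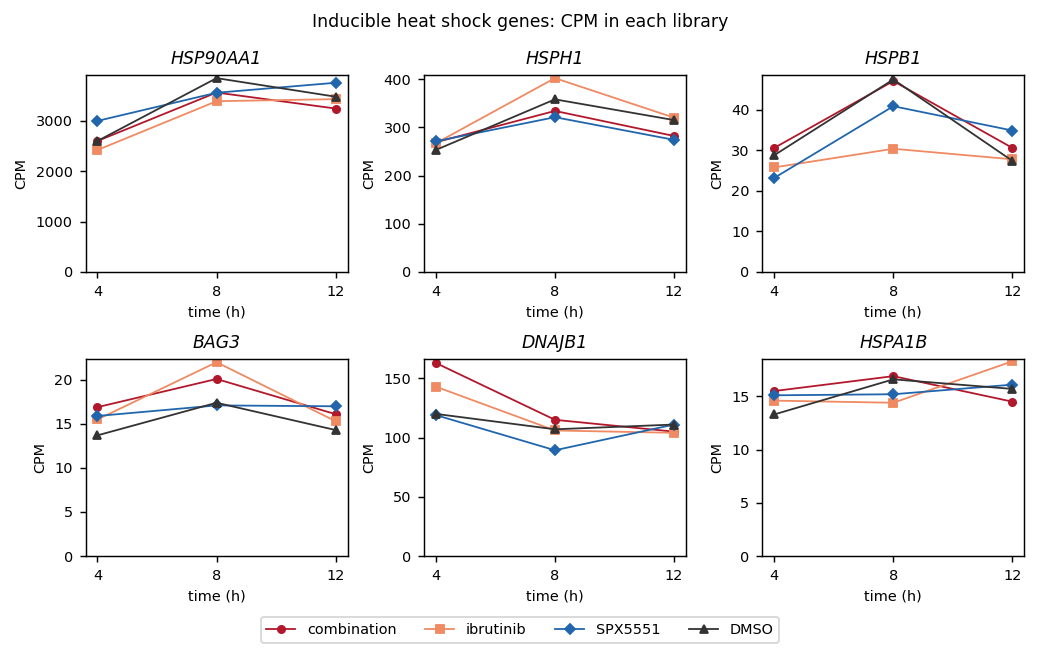
CPM against time (h) for the 6 tested inducible genes in the combination, ibrutinib, SPX5551 and DMSO libraries; each point is 1 library and all axes start at 0. At 8 h HSP90AA1, HSPH1 and HSPB1 stand above their 4 h values in all 4 treatments, and DNAJB1 stands below.

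The second comparison asked what ibrutinib added in cells that also received SPX5551. It shares the combination libraries with the first, so the 2 are not independent. Of the 38 genes, 9 fell and 0 rose, a share of 23.7% against 3.97% of all genes tested. At an unadjusted p under 0.05, 22 were lower and 2 higher, and 3821 of all 14412 genes had such a p. DESeq2 called 17 lower and 0 higher. Over all genes DESeq2 called 1454, where edgeR called 1043. FKBP4 fell by 0.63, HSPE1 by 0.57, BAG1 by 0.50, HSPD1 by 0.44, CCT5 by 0.39, HSPA9 by 0.38, CCT8 by 0.35, TCP1 by 0.31 and PTGES3 by 0.29 on the log2 scale. HSPE1, which had not passed against DMSO, had 65.5, 74.5 and 55.6 CPM with the combination, against 88.7, 103 and 97.8 CPM with SPX5551, and the groups did not overlap (adjusted p = 0.0137). BAG1 had 174, 195 and 205 CPM with SPX5551, each above the highest combination value of 161 CPM (adjusted p = 0.0152). CCT5 held 769, 751 and 754 CPM in the SPX5551 libraries, CCT8 held 479, 499 and 492 CPM, TCP1 held 493, 543 and 495 CPM, and PTGES3 held 1135, 1300 and 1185 CPM. In each of these 4 genes every SPX5551 library was above every combination library. HSPA9 alone of the 9 overlapped, with 719, 638 and 583 CPM in the SPX5551 libraries. Calls and overlap rest on the same libraries, so the separation is no added evidence, and overlap was not counted over all genes.

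By class, 3 of 5 mitochondrial genes, 3 of 8 TRiC subunits and 3 of 9 co-chaperones fell against SPX5551, and 0 of 9 constitutive and 0 of 6 inducible genes did in edgeR. At an unadjusted p under 0.05 these were 5, all lower, and 1, higher, DESeq2 called 2 and 0, and limma-trend 0 and 0. The inducible median was 0.06 and HSF1 was at 0.28 ± 0.09 (adjusted p = 0.0743), with 109, 129 and 94.7 CPM with the combination, against 80.6, 97.3 and 95.2 CPM with SPX5551. HSF1 was called higher with library size as the only scaling, and stood at 0.04 after length and GC correction. Leaving out 1 library gave 2 (12 h combination), 4 (12 h SPX5551) or 5 (8 h SPX5551) in place of 9. The count was 16 after length and GC correction (15 lower, and DNAJB1 higher), 3 in the 6 libraries alone and 0 when time was dropped from the model. It was 0, 4 and 5 when the 4, 8 or 12 h samples were left out. The 5 were 3 lower, with HSF1 and DNAJB1 higher. Over all genes, calls went from 1043 to 1849 after the correction, 496 in the 6 libraries alone and 5 with time dropped. They were 129, 443 and 568 without 4, 8 or 12 h. FKBP4 and HSPD1 kept their calls in all 12 fits without 1 library.

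Against ibrutinib alone, the question was what SPX5551 added, and 2 genes fell. These were FKBP4 (-0.52 ± 0.10, adjusted p = 0.01) and HSPA9 (-0.40 ± 0.10, adjusted p = 0.0311), 5.26% of the 38 against 3.39% of all genes tested. HSPA9 had 672, 474 and 380 CPM with the combination, against 762, 641 and 573 CPM with ibrutinib, and was lower with the combination at each time. HSPD1 was at -0.27 and did not pass (adjusted p = 0.0692), and HSPE1 was at 0.07. DESeq2 called 5. Leaving out 1 library gave 0 (4 h ibrutinib) or 1 (8 or 12 h combination, 8 or 12 h ibrutinib). The count was 0 when time was dropped from the model or when the 4 or 8 h samples were, 1 in the 6 libraries alone, 4 when all genes were kept whatever their counts, and 5 after length and GC correction.

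A model of exposure set all 6 libraries with ibrutinib, alone or in the combination, against the 6 without it. Here 7 genes fell and 0 rose, 18.4% against 6.58% of all genes tested. At an unadjusted p under 0.05, 21 were lower and 0 higher, and DESeq2 and limma-trend called 0 higher. Over all genes, 4581 of 14412 had such a p. HSPE1 fell by 0.49 ± 0.09 (adjusted p = 0.00451), with 55.6 to 74.5 CPM in exposed and 69.8 to 104 CPM in unexposed libraries. BAG1 fell by 0.38 ± 0.08 (adjusted p = 0.0110), with 114 to 161 CPM in exposed and 150 to 206 CPM in unexposed libraries. FKBP4 fell by 0.38, and HSPD1, CCT5 and CCT8 each by 0.26, and TCP1 by 0.20. The groups overlapped in all 7. HSPE1 and BAG1 were called in all 12 fits without 1 library, but the count of 7 became 2 (12 h combination left out), 3 (12 h SPX5551), 4 (4 h combination or 8 h SPX5551), 12 (12 h ibrutinib) or 13 (12 h DMSO). It was 3, 0 and 2 when the 4, 8 or 12 h samples were left out. It was 0 when time was dropped from the model and 4 when both the 8 h ibrutinib and the 12 h SPX5551 library were. After length and GC correction it was 11 (10 lower, and DNAJB1 higher), and in DESeq2 14, all lower. Over all genes, calls went from 1978 to 2038 after the correction, 2369 in DESeq2 and 512 without the 2 libraries. They were 671, 83 and 182 without 4, 8 or 12 h, and 29 with time dropped.

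With ibrutinib alone, 0 of 38 genes passed against DMSO in edgeR, and 0.104% of all genes did, 15 in all. DESeq2 and limma-trend called 0 of the 38. At an unadjusted p under 0.05 there were 1588 of all 14412 genes and 2 of the 38, both lower. Those 2 were HSPE1 (58.6, 57.5 and 69.1 CPM with ibrutinib; -0.40 ± 0.13, adjusted p = 0.452) and BAG1 (141, 143 and 150 CPM with ibrutinib; -0.26 ± 0.11, adjusted p = 0.452), and neither overlapped its DMSO group, BAG1 by a narrow margin (150 CPM in both 12 h libraries). HSPE1 and BAG1 were picked by that p, and overlap was not counted over all genes. All 8 TRiC subunits were at or below -0.09 with ibrutinib, to -0.18 for CCT8. With SPX5551 alone, 0 of 38 passed in edgeR, 0% of all genes did, and DESeq2 and limma-trend called 0. At an unadjusted p under 0.05, 1 of the 38 was higher, and 1200 of all 14412 genes had such a p. All 8 TRiC subunits were positive, between 0.01 and 0.19, but 4 of 8 were negative after length and GC correction. HSPE1 was at 0.24 ± 0.12 (adjusted p = 0.626).

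Whether the combination departed from the sum of both agents was tested as an interaction. None of 38 passed in edgeR (0% of all genes, smallest adjusted p over all genes 0.285), and 0 did in DESeq2 and limma-trend. At an unadjusted p under 0.05 there were 3 of the 38, and 845 of all 14412 genes. FKBP4 had the smallest p, at -0.51 ± 0.14 (adjusted p = 0.750), then HSPD1 at -0.35 ± 0.12 (adjusted p = 0.766) and HSPB1 at 0.40 ± 0.19 (adjusted p = 0.849). For SPX5551 exposure, the 6 libraries with SPX5551 against the other 6, 0 of 38 passed in edgeR against 7.01% of all genes. There were 4 lower at an unadjusted p under 0.05, and 3851 of all 14412 genes had such a p. Of the 38, DESeq2 called 2 and limma-trend 1. Leaving out 1 library gave 1 (12 h SPX5551 or 8 h DMSO) or 2 (4 h SPX5551 or 4 h DMSO). The effect of ibrutinib exposure did not differ between times past the threshold for any of the 38 (0% of all genes), with 0 at an unadjusted p under 0.05 and 0 in DESeq2 and limma-trend.

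Between times, chaperone genes moved in both directions. The 4 treatments stood in as replicates of a time (n = 4). At 8 h against 4 h, 12 genes rose and 4 fell. The 12 are 31.6% of the genes, against 13.1% of all genes tested that rose, and the 4 are 10.5%, against 13.4% that fell. Of the 6 inducible genes, 4 rose and DNAJB1 fell, with a class median of 0.36, while TRiC subunits had a median of 0.00. After length and GC correction, 14 of the 38 rose and 5 fell, and over all genes 2012 rose and 2141 fell. In the inducible class 3 then rose and 1 fell, with a median of 0.25. Whether cultures of different times were handled alike is not stated in the labels.

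HSP90AA1 rose at 8 h in all 4 treatments by 0.44 ± 0.08 (adjusted p = 0.00104). Its 8 h values were 3562 CPM with the combination, 3390 with ibrutinib, 3558 with SPX5551 and 3848 with DMSO, and its 4 h values were 2600, 2421, 2999 and 2600 CPM in that order of treatments. No 4 h library reached an 8 h one. HSPB1 rose by 0.60 ± 0.11 (adjusted p = 0.00141), with 47.1, 30.4, 40.9 and 47.5 CPM at 8 h and 30.6, 25.8, 23.2 and 28.8 CPM at 4 h in that order; the ibrutinib library at 8 h lay just under the combination library at 4 h. HSPH1 rose by 0.41 ± 0.08, with 334, 402, 321 and 358 CPM at 8 h and 269, 267, 271 and 253 CPM at 4 h. BAG3 rose by 0.30 ± 0.10 (20.1, 22.0, 17.1 and 17.4 CPM at 8 h, against 16.9, 15.5, 15.9 and 13.7 CPM at 4 h) and lost its call in 6 of the 12 fits without 1 library, those without the 4 or 8 h library of the combination, ibrutinib or DMSO. DNAJB1 went the other way, with 115, 106, 89.3 and 107 CPM at 8 h and 163, 143, 119 and 120 CPM at 4 h, and fell by 0.38 ± 0.09 (adjusted p = 0.00655). It also fell at 12 h against 4 h, by 0.32 ± 0.09.

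HSF1 itself rose by 0.29 ± 0.08 at 8 h (adjusted p = 0.0128), with 129, 121, 97.3 and 117 CPM at 8 h and 109, 94.1, 80.6 and 94.3 CPM at 4 h. After length and GC correction it was at 0.08 and not called. Outside the inducible class, AHSA1, which stimulates the ATPase of HSP90, rose by 0.57 ± 0.09, with 355 to 398 CPM at 8 h and 226 to 309 CPM at 4 h. DNAJB6, a J protein that keeps aggregation-prone proteins soluble, rose by 0.48 ± 0.07, with 193 to 201 CPM at 8 h and 132 to 154 CPM at 4 h. STIP1, the adapter between HSP70 and HSP90, rose by 0.33, CHORDC1, another HSP90 co-chaperone, by 0.32, DNAJA1 by 0.32, HSPA4L by 0.31 and CCT4 by 0.23. Besides DNAJB1, the genes that fell were HSPA14 (-0.34), a ribosome-bound HSP70, HSPA9 (-0.32) and CCT2 (-0.23). HSPB1, HSP90AA1, HSPH1, DNAJB1, AHSA1, DNAJB6, DNAJA1, HSPA14 and STIP1 kept their calls in all 12 fits without 1 library.

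**Figure D5:**
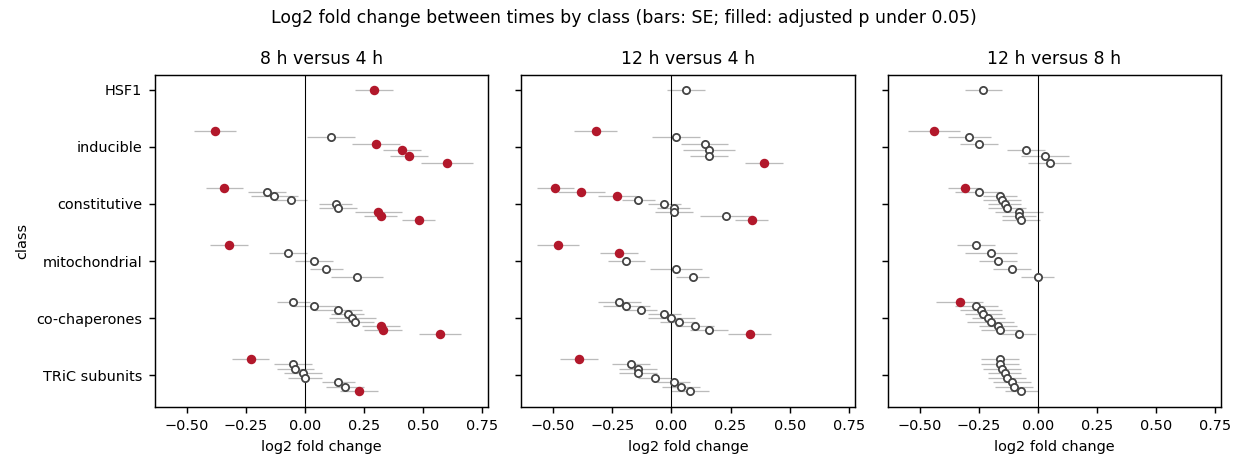
Log2 fold change of each gene by class between times; points are genes, bars are standard errors, and filled points have an adjusted p under 0.05. At 8 h against 4 h, 4 inducible genes are filled on the right and DNAJB1 on the left, and at 12 h against 8 h nearly all points lie below 0.

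At 12 h against 4 h, 3 genes rose and 7 fell. The rising share was 7.89% against 18.4% of all genes tested, and the falling share 18.4% against 17.5%. HSP90AA1 (0.39 ± 0.08), DNAJB6 (0.34 ± 0.07) and AHSA1 (0.33 ± 0.09) were the genes that rose, and each had also risen at 8 h. HSPA14 fell by 0.49 ± 0.08, HSPA9 by 0.48 ± 0.09, CCT2 by 0.39 ± 0.08, HSPA8 by 0.38 ± 0.10, DNAJB1 by 0.32, DNAJC7 by 0.23 and TRAP1 by 0.22. HSPA9 had 380 to 626 CPM at 12 h and 672 to 819 CPM at 4 h, without overlap, and its difference was -0.82 with the combination, -0.41 with ibrutinib, -0.30 with SPX5551 and -0.39 with DMSO. HSPA8 had 3337 to 4815 CPM at 12 h and 5212 to 5725 CPM at 4 h, with differences of -0.78, -0.42, -0.14 and -0.18 in that order. The count of 10 became 6 without the 4 h combination library and 19 when both the 8 h ibrutinib and the 12 h SPX5551 library were left out. Over all genes, calls went from 5167 of 14412 to 3783 of 14611 and to 6440 of 14637 in the same fits. With library size as the only scaling, 7 of the 38 were higher and 5 lower. After length and GC correction 5 were higher and 10 lower, and over all genes 2859 and 3248.

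At 12 h against 8 h, 36 of 38 genes had negative values with a median of -0.16, where the median of all genes was 0.01. Of these, 3 fell, 7.89% against 4.66% of all genes tested. They were HSPB1 (-0.44 ± 0.11, adjusted p = 0.0317), STUB1 (-0.33 ± 0.10, adjusted p = 0.0490) and DNAJA1 (-0.31 ± 0.07, adjusted p = 0.0273). HSPB1 had 30.6, 27.8, 34.9 and 27.4 CPM at 12 h with the combination, ibrutinib, SPX5551 and DMSO, against 47.1, 30.4, 40.9 and 47.5 CPM at 8 h, and all 4 pairs were lower. Leaving out 1 library gave 0 (8 or 12 h combination, 8 or 12 h DMSO), 1 (12 h ibrutinib or 8 h SPX5551), 6 (8 h ibrutinib or 4 h SPX5551) or 10 (12 h SPX5551). DESeq2 called 9, and the count was 10 after length and GC correction and 10 when all genes were kept whatever their counts. It was 14 when both the 8 h ibrutinib and the 12 h SPX5551 library were dropped. Calls over all genes moved too, from 1308 of 14412 to 4913 of 14637 without the 2 libraries. They were 1827 in DESeq2, 1488 after the correction, and 27 to 58 without an 8 or 12 h combination or DMSO library.

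Other folding genes, listed as a setting for the 39, were tested in the same fits. Of all genes tested, 5.41% fell and 4.16% rose with the combination against DMSO, 3.97% fell against SPX5551, 3.39% fell and 2.1% rose against ibrutinib, 6.58% fell with ibrutinib exposure and 17.5% fell at 12 h against 4 h. With the combination against DMSO, 1 of 8 other mitochondrial folding and protease genes fell. This was GRPEL1, the exchange factor that resets HSPA9 (-0.57 ± 0.10, adjusted p = 0.00210), and it also fell against SPX5551 (-0.48) and with ibrutinib exposure (-0.37). Of 15 chaperones of the endoplasmic reticulum, 3 fell against DMSO: HSPA5, the HSP70 of that compartment (-0.35), PDIA6, a disulfide isomerase (-0.34), and HSP90B1, its HSP90 (-0.30). Against SPX5551 2 fell, DNAJB9 (-0.45) and PDIA6 (-0.30), and against ibrutinib 2, CANX (-0.41), a lectin chaperone, and HYOU1 (-0.39). With ibrutinib exposure 4 fell, led by SDF2L1 (-0.49), MANF (-0.34) and DNAJB11 (-0.26). Of 30 tested other cytosolic folding factors, DNAJC2, a ribosome-associated J protein, fell against DMSO (-0.64 ± 0.10) and DNAJB4, another J protein, rose (0.58 ± 0.14). Against ibrutinib FKBP5, an isomerase that works with HSP90 as FKBP4 does, fell (-0.40) and DNAJB2 rose (0.44). Prefoldin hands unfolded actin and tubulin to TRiC. Of 11 prefoldin subunits and TRiC partners, 1 fell against DMSO, PDCL3 (-0.37). With ibrutinib exposure 5 of 11 fell, among them PDCL3 (-0.30), PFDN5 (-0.27) and PDRG1 (-0.23), and at 12 h against 4 h 9 of 11 did. The medians against DMSO were -0.07 for the mitochondrial, -0.21 for the endoplasmic reticulum, 0.07 for the cytosolic and -0.06 for the prefoldin list.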

How the data were processed

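REC1 cells were sampled at 4, 8 and 12 h under 4 treatments, 1 RNA-seq library each. Raw counts per gene and a table of log2 CPM were deposited by the authors; BWA and hg38 are named in the submitters' processing notes, while how reads were counted, the annotation, the use of strand and the scaling of the log2 CPM are given in none of the sources used here. Counts carry no molecular identifiers. Columns were assigned by their headers.

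Counts were tested with edgeR 4.0.16 (R 4.3.3), the quasi-likelihood test with Benjamini-Hochberg adjustment over all 14412 genes kept by edgeR's filter on low counts, with TMM scaling and a model of treatment plus time. Genes with an adjusted p under 0.05 were called. CPM values use TMM-scaled library sizes, and log2 CPM a prior count of 2. The time stands in for replicates, so the SD over a treatment holds changes with time. Exposure models compared the 6 libraries with an agent with the 6 without it. DESeq2 1.42.0 and limma 3.58.1 (on the deposited log2 CPM), other scaling, no filter, no time term, omission of libraries and times, removal of a trend with length and GC content, assignment by the descriptions, and HSPA1A and HSPA1B summed were the alternatives. Totals were 19336303 to 28934030 counts, and the common biological coefficient of variation was 0.101. Symbols were found for 93.1% of IDs, and transcripts are those of GENCODE 29.

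The genes and lists were chosen with earlier results of these data known. Values in every library are given for HSF1, the inducible class, each gene called in a treatment comparison and the 2 genes of each other class with the smallest p for the combination against DMSO. Genes of other lists are named where called, at most 3 per list and comparison.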

Additional observations from a re-analysis of the deposited data

Results flagged for a closer look

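Single libraries stood apart for 8 genes in 9 of the 190 groups examined: 38 genes in the 6 libraries with ibrutinib, in the 6 without it, and in the 4 libraries of each time. In each case the gap to the nearest library took up more than 0.625 of the range of a group of 6, or 0.829 of a group of 4, on the log2 scale. Chance flags about 1 in 20 such groups, and the groups of 4 mix the treatments. In the combination libraries, 6 values were apart. HSPB1 was high at 8 h, at 47.1 CPM, with the next ibrutinib-exposed library at 30.6 CPM. The 12 h library was low for TRAP1 (161 CPM, next 213) and CCT5 (499 CPM, next 614) among ibrutinib-exposed libraries. It was also low among the 12 h libraries for HSPA4 (274 CPM, next 339) and BAG2 (56.3 CPM, next 65.8). HSPA9 was low at 8 h, at 474 CPM, with the next 8 h library at 638 CPM. Among the libraries without ibrutinib, the 8 h SPX5551 library was low for DNAJB1 (89.3 CPM, next 107), and the 12 h DMSO library for CCT5 (683 CPM, next 741) and CCT8 (413 CPM, next 479).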

How the results depend on the processing

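The time term pairs the libraries of a time in every treatment comparison, and the labels number no replicates that could give another block. Counts of called genes moved by over 1.5 times as follows, and the cause was not tested. Calls over all genes moved between these fits too. For the combination against DMSO, 5 in the fit as reported, the count was 15 in DESeq2, 8 in limma-trend, 9 with relative log expression scaling, 3 scaled by library size alone, 9 unfiltered, 0 with no time term, 18 in the 6 libraries alone, 18 after length and GC correction, 2, 1 and 2 without 4, 8 and 12 h, 19 without the 12 h SPX5551 and 8 h ibrutinib libraries together, and 2 to 10 when 1 library was left out. Against SPX5551, 9 became 17 in DESeq2, 16 after the correction (15 lower, 1 higher), 0 with no time term, 3 in the 6 libraries alone, 0, 4 and 5 without 4, 8 and 12 h, and 2 to 11 without 1 library. Against ibrutinib, 2 became 5 in DESeq2, 5 after the correction, 4 unfiltered, 0 with no time term, 1 in the 6 libraries alone, 0 and 0 without 4 and 8 h, and 0 to 3 without 1 library. For ibrutinib exposure, 7 became 14 in DESeq2, 11 after the correction (10 lower, 1 higher), 0 with no time term, 3, 0 and 2 without 4, 8 and 12 h, 4 without the 2 libraries, and 2 to 13 without 1. For SPX5551 exposure, 0 became 2 in DESeq2, 1 in limma-trend, 1 with relative log expression scaling, 1 after the correction, 2 unfiltered, and 0 to 2 without 1 library. Ibrutinib against DMSO went to 1 unfiltered and 2 without 12 h. At 12 h against 4 h, 10 became 19 without the 2 libraries and 6 to 13 without 1. At 12 h against 8 h, 3 became 9 in DESeq2, 5 with relative log expression scaling, 10 after the correction, 10 unfiltered, 14 without the 2 libraries, and 0 to 10 without 1. The count at 8 h against 4 h moved less, from 16 to between 11 and 16 without 1 library. Ibrutinib against DMSO, SPX5551 against DMSO, the interaction, and time by ibrutinib exposure stayed at 0 in each of the 12 fits without 1 library.

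Columns assigned by the descriptions gave 9 genes for the combination against DMSO, 3 against SPX5551, 0 against ibrutinib, 2 for ibrutinib exposure, 5 for ibrutinib against DMSO, 2 for SPX5551 against DMSO and 2 for the interaction. They also turned the log2 fold changes round, except for FKBP4 (-0.01) and HSPA9 (-0.11) against ibrutinib and HSPA9 (-0.02) against SPX5551, which were no longer called. For the combination against DMSO the values became 0.63 for FKBP4, 0.44 for HSPD1, 0.39 for CCT5, 0.38 for HSPA9 and 0.26 for TRAP1. Against SPX5551 they became 0.64 for HSPE1, 0.40 for BAG1, 0.27 for CCT8, 0.20 for CCT5, 0.18 for TCP1, 0.17 for HSPD1, 0.16 for PTGES3 and 0.11 for FKBP4. For ibrutinib exposure they became 0.48 for HSPE1, 0.38 for BAG1, 0.38 for FKBP4, 0.26 for HSPD1, 0.26 for CCT5, 0.26 for CCT8 and 0.20 for TCP1. No other alternative turned the sign of a called gene. Scaling by library size alone moved the split of all called genes to 871 higher and 393 lower against SPX5551 (471 and 572 as reported), 454 and 265 against ibrutinib (302 and 489), 1642 and 605 for ibrutinib exposure (1029 and 949), 433 and 315 for SPX5551 exposure (306 and 705), 3524 and 1676 at 12 h against 4 h (2645 and 2522), and 877 and 341 at 12 h against 8 h (636 and 672). Depth limits HSPA1A most, at 1 to 13 counts per library.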

Other observations

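Folding genes outside the 39 also differed between times. At 8 h against 4 h, 8 of 30 other cytosolic folding factors rose and 6 fell, where 13.1% of all genes rose and 13.4% fell. At 12 h against 4 h 6 rose and 6 fell, close to the 18.4% and 17.5% of all genes. Of 15 chaperones of the endoplasmic reticulum, 3 fell at 8 h against 4 h and 5 rose at 12 h against 4 h. The 11 prefoldin subunits and TRiC partners had a median log2 fold change of -0.35 at 12 h against 4 h.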
